A study of Mus musculus with 4 samples.

Results

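The genes described here code for enzymes that use, make or recycle glutathione and for enzymes that remove superoxide and peroxides. They were chosen by symbol: the glutathione transferases (symbols starting with Gsta, Gstk, Gstm, Gsto, Gstp, Gstt, Gstz or Mgst and a digit), the glutathione peroxidases (Gpx), the peroxiredoxins (Prdx) and the superoxide dismutases (Sod), together with Cat, Nqo1, Hmox1, Gclc, Gclm, Gss, Gsr, Txn1, Txnrd1, Srxn1 and Nfe2l2. The rule uses no measured value, but it was set with earlier results of these data known. It gave 54 of the 24421 gene symbols in the count table. FAPs (fibro-adipogenic progenitors) are mesenchymal cells of the muscle interstitium, and the study divided them by DPPIV, the surface peptidase encoded by Dpp4, while asking which FAPs form the niche of resident macrophages. Bulk RNA sequencing was run on DPPIV- FAPs and DPPIV+ FAPs of the same 2 wild-type mice, which gave 4 libraries. Both mice, and so both cell types, had been under CSF1R inhibition for 3 weeks, a treatment that depletes macrophages, and had then been back on regular diet for 3 days. No library of an untreated mouse was analysed here, and the labels give neither the age nor the sex of these mice. Cells were sorted as PI- CD31- CD45- Sca1+, from the tibialis anterior by one label and from the muscle of both hindlimbs by the protocol text.

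Glutathione is a small thiol that is made by glutamate-cysteine ligase (Gclc, Gclm) and glutathione synthetase (Gss), and that is kept reduced by glutathione reductase (Gsr) with NADPH. Transferases couple it to reactive compounds, and peroxidases and some peroxiredoxins spend it or thioredoxin to reduce peroxides, which superoxide dismutases form from superoxide. Many of these genes are known targets of NRF2, the transcription factor encoded by Nfe2l2, which KEAP1 holds at a low level until oxidants or electrophiles modify KEAP1.

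Between 18240110 and 20879405 reads per library were counted on genes, so that 3 reads, taken here as the limit of detection, came to between 0.144 and 0.164 CPM (counts scaled to a library of 1e6 reads). Dpp4 was 3.41 ± 0.08 (SE, log2 scale) higher in DPPIV+ FAPs, with log2 ratios of 3.02 in mouse 1 and 3.86 in mouse 2. It had 89.6 and 39.6 CPM in DPPIV- FAPs and 726 and 574 CPM in DPPIV+ FAPs. Its SE was 0.41 by DESeq2, with a DESeq2 adjusted p of 8.75e-16. Dpp4 passed edgeR's main test, but the edgeR adjusted p was 0.178 with robust moderation. The FAP markers Pdgfra, Ly6a, Cd34, Dcn and Pi16 were abundant in all 4 libraries and differed both ways. Ly6a (0.58 ± 0.07), Cd34 (0.52 ± 0.07) and Pi16 (2.66 ± 0.08) were higher in DPPIV+ FAPs, and Pdgfra (-0.38 ± 0.07) and Dcn (-0.28 ± 0.09, with log2 ratios of -0.44 in mouse 1 and -0.13 in mouse 2) were lower. Markers of other cells were found at unequal levels. The summed level of 4 tenocyte markers was 196 and 294 CPM in DPPIV- FAPs and 747 and 1546 CPM in DPPIV+ FAPs, with 4 of 4 higher. Fmod made up most of it, with 167 and 259 CPM against 687 and 1442 CPM. The summed level of 6 mural markers was 121 and 123 CPM against 51.0 and 63.4 CPM, with 5 of 6 lower by edgeR's test and 3 by DESeq2's. The tenocyte marker Scx passed the filter of 2 CPM in at least 2 libraries only through DPPIV+ FAPs. The mural marker Kcnj8 passed it only through DPPIV- FAPs. Each was thus tested only because of the cell type where it was high. Macrophage markers summed to between 55.7 and 92.2 CPM, with Timd4 at 0 reads in 3 libraries. Of the 6 tested, 3 were lower by edgeR's test and 0 by DESeq2's. Among these 3, Csf1r had log2 ratios of -0.59 in mouse 1 and -0.00095 in mouse 2. The 5 endothelial markers summed to 242 and 181 CPM against 501 and 457 CPM. Tek made up most of this sum, with 187 and 149 CPM against 466 and 426 CPM, and was higher. Pecam1, Cdh5 and Kdr were lower by edgeR's test and not by DESeq2's. The log2 ratios in mouse 1 and mouse 2 were -0.95 and 0.10 for Kdr and -0.80 and -0.00056 for Pecam1. Of 10 genes of the response to dissociation, such as Fos, Jun and Hspa1a, 8 were lower by edgeR's test and 7 by DESeq2's, and Atf3 was higher. Their sums were 12045 and 11820 CPM against 10512 and 9156 CPM. Adipocyte markers were at most 0.255 CPM in sum, satellite cell markers 1.22 CPM, and myofibre markers 49.7 CPM, while the Schwann cell markers lay between 10.1 and 15.7 CPM. The part of these cells and of the dissociation response in the differences given next was not tested. Of the erythroid markers, 4 haemoglobin genes with near-identical copies were listed at 0 reads and Alas2 lay between 2.83 and 4.05 CPM. Xist had 153 and 166 reads in the libraries of mouse 1 against 1 and 3 in those of mouse 2, while 4 Y-linked genes summed to between 2391 and 2624 reads in every library.

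Of the 54 genes, 40 passed the filter of 2 CPM in at least 2 libraries and were tested. With edgeR's quasi-likelihood test, paired by mouse and adjusted over 11588 genes, 9 were higher in DPPIV+ FAPs and 8 were lower, and 23 did not pass the threshold of 0.05. Of the 11588 genes tested, 33.0% passed, 15.9% as higher and 17.2% as lower, so the 17 of 40 (42.5%) lay not far above the share among all genes. The 40 genes were also more abundant, with a median of 64.0 CPM against 25.0 CPM. Their changes went both ways and were mostly small: the median log2 fold change was 0.05, against -0.0020 over all genes tested, and the median size of the change was 0.18 against 0.16. The 17 genes moved the same way in both mice, and in 16 of them both DPPIV+ libraries lay on one side of both DPPIV- libraries, with Hmox1 as the exception. Neither count sets them apart from other genes that passed. Of all 3826 such genes, 3804 moved the same way in both mice and 3623 showed this separation. Such a separation was seen in 28 of the 40 genes and in 56.3% of all genes tested. At least a 1.5-fold change was reached by Gsto1, Mgst3 and Prdx6, 3 of 40, whereas 14.8% of all genes tested did so. DESeq2's Wald test on the same genes called 10 of the 40 (6 higher, 4 lower), and 16.6% of all genes. Summed over the 54 genes, the level was 4946 and 4888 CPM in DPPIV- FAPs and 4726 and 5066 CPM in DPPIV+ FAPs, so the groups overlapped. In sorted cells, a change in the share of cells that carry a transcript and a change in the amount per cell cannot be told apart.

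**Figure D1:**
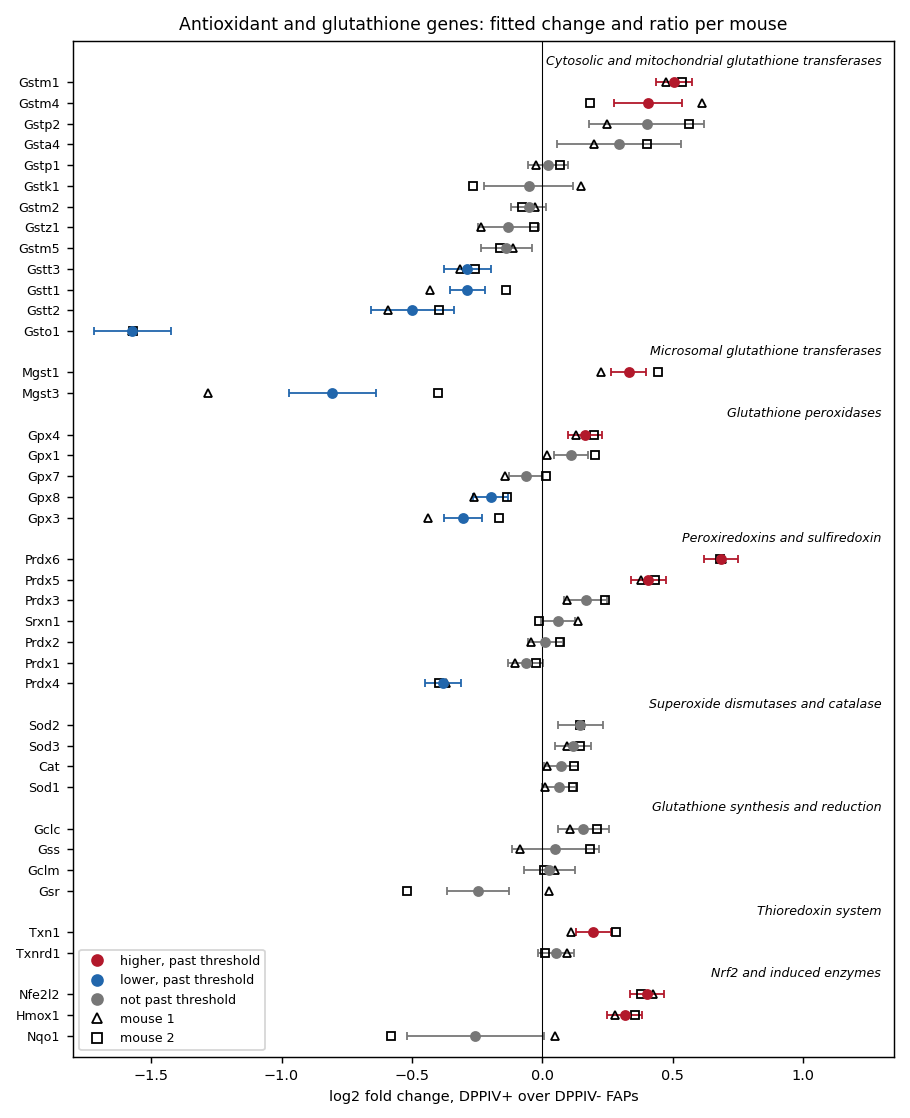
Fitted log2 fold change of DPPIV+ over DPPIV- FAPs (circles, with bars of 1 SE) for the 40 genes tested, by enzyme class, with the ratio in mouse 1 (triangles) and mouse 2 (squares). Red marks 9 genes higher and blue 8 genes lower past the adjusted threshold; Gsto1 lies farthest from 0, and 23 grey genes did not pass.

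Of the 21 cytosolic and mitochondrial glutathione transferases, 13 were tested, 2 were higher and 4 were lower. The largest change of all 40 genes was that of Gsto1, which codes for an omega-class transferase that also reduces dehydroascorbate and lies at chr19:47854970-47864790 (GRCm38). It had 19.0 CPM in mouse 1 and 17.2 CPM in mouse 2 in DPPIV- FAPs, and 6.37 and 5.80 CPM in DPPIV+ FAPs. The groups lay far apart, and both mice gave the same ratio to 2 decimals, -1.57 on the log2 scale. The fitted change was -1.57 ± 0.15 (SE; edgeR adjusted p = 2.14e-25, DESeq2 adjusted p = 7.15e-09), a level 2.97-fold higher in DPPIV- FAPs. Gsto1 was the member that still passed when the test was made against a 1.5-fold change. Its neighbour Gsto2 had between 3 and 11 reads per library and was not tested.

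The mu-class genes stand in 1 cluster on chromosome 3 and the theta-class genes in another on chromosome 10, and they are taken in turn. Gstm1, the most abundant transferase, had 327 and 301 CPM in DPPIV- FAPs and 455 and 435 CPM in DPPIV+ FAPs. Both DPPIV+ libraries were above both DPPIV- libraries, and the fitted log2 change was 0.50 ± 0.07 (edgeR adjusted p = 1.52e-12, DESeq2 adjusted p = 4.63e-07), or 1.42-fold. Gstm4 was 0.41 ± 0.13 higher on the log2 scale (edgeR adjusted p = 0.00801), but its log2 ratio was 0.61 in mouse 1 and 0.18 in mouse 2, and DESeq2 gave an adjusted p of 0.362. Gstm2, which lies between Gstm1 and Gstm5 and had the second highest level among the cytosolic transferases, did not pass at -0.05 ± 0.07, and its 95% interval ran from -0.18 to 0.08. Gstm5 was at -0.14 ± 0.10 and did not pass. Of the other mu-class genes, Gstm7 had between 25 and 78 reads, Gstm6 between 15 and 29, and Gstm3 none. The summed level of the cluster was 515 and 481 CPM in DPPIV- FAPs against 641 and 608 CPM in DPPIV+ FAPs. Gstm1 made up most of this sum, and the rise was not shared by the whole cluster. Gstm2 had 146 and 142 CPM against 143 and 135 CPM, and Gstm5 had 25.7 and 24.6 CPM against 23.8 and 22.0 CPM. Gstm4, which was higher, had 11.7 and 11.6 CPM against 17.8 and 13.2 CPM. Part of the Gstm1 sequence is not its own: 18.9% of its 50-base words also occur in transcripts of other genes, mostly of the pseudogene Gstm2-ps1, and how the authors' counting treated such reads is not given in the sources used here.

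Theta-class transferases act on small halogenated and other reactive compounds, and 3 of 3 tested members were lower by edgeR's test and 0 of 3 by DESeq2's. Among all genes tested, 17.2% were lower by edgeR's test. Gstt1 had 81.8 and 66.9 CPM in DPPIV- FAPs and 60.7 and 60.8 CPM in DPPIV+ FAPs, a log2 change of -0.29 ± 0.07 (edgeR adjusted p = 1.12e-04, DESeq2 adjusted p = 0.162). The DPPIV+ libraries were alike and the DPPIV- libraries were not, so the ratio was -0.43 in mouse 1 and -0.14 in mouse 2. Gstt3 was at -0.29 ± 0.09 (edgeR adjusted p = 0.00586, DESeq2 0.352) and Gstt2 at -0.50 ± 0.16 (edgeR adjusted p = 0.00657, DESeq2 0.299). Gstt4 had 1 or 2 reads per library. An exon of Gstt3 shares 524 bases with the predicted gene Gm20441 on the same strand.

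**Figure D2:**
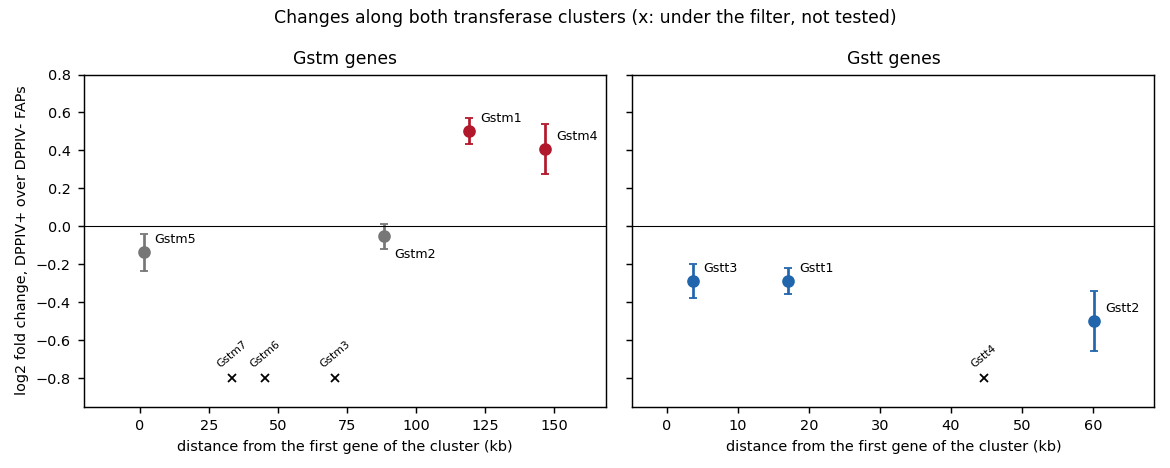
Fitted log2 fold change of DPPIV+ over DPPIV- FAPs, with bars of 1 SE, against distance in kb from the first gene of the mu-class (Gstm, left) and theta-class (Gstt, right) clusters; a cross at the bottom marks a gene under the filter, which has no fitted value. Gstm1 and Gstm4 lie above 0 and are coloured as higher, while Gstt3, Gstt1 and Gstt2 lie below 0 and are coloured as lower.

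The remaining transferases did not pass the threshold. Gstp1, the pi-class enzyme, had between 45.0 and 48.6 CPM in the 4 libraries and a log2 change of 0.02 ± 0.08. Its near copy Gstp2 was at 0.40 ± 0.22 (edgeR adjusted p = 0.164). The 2 genes share sequence, with 33.7% of the 50-base words of Gstp1 and 54.3% of those of Gstp2 found elsewhere, so their split is uncertain. Gstz1 was at -0.13 ± 0.12, Gstk1 at -0.05 ± 0.17 and Gsta4 at 0.29 ± 0.24. Of the untested alpha-class genes, Gsta3 had 30 and 22 reads in DPPIV- FAPs and 11 and 3 in DPPIV+ FAPs, whereas Gsta1 had 0 and 0 against 4 and 3 and Gsta2 had 0 and 0 against 2 and 0. Of the 50-base words of Gsta1, 90.5% occur in other transcripts.

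The microsomal transferases are membrane enzymes of another fold, and both tested members passed the threshold in opposite directions. Mgst1, which also reduces lipid hydroperoxides, had 145 and 115 CPM in DPPIV- FAPs and 169 and 157 CPM in DPPIV+ FAPs. The log2 change was 0.33 ± 0.07 (edgeR adjusted p = 3.70e-06, DESeq2 0.0170). Mgst3, at chr1:167371966-167393841 (GRCm38), had 11.1 and 10.6 CPM in DPPIV- FAPs and 4.54 and 8.05 CPM in DPPIV+ FAPs. Both DPPIV+ libraries were lower, that of mouse 1 by more, with log2 ratios of -1.28 and -0.40. The fitted log2 change was -0.81 ± 0.17 (edgeR adjusted p = 9.14e-06, DESeq2 adjusted p = 0.0491), and its size therefore rests on mouse 1: without it, the value was -0.40. Without the pairing by mouse, neither Mgst1 (adjusted p = 0.107) nor Mgst3 (adjusted p = 0.0750) passed. Mgst2 had at most 1 read per library.

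Of the glutathione peroxidases, 5 of 9 were tested, 2 were lower and 1 was higher. Gpx3, the secreted peroxidase of plasma and interstitial fluid, was by far the most abundant of all 54 genes and held between 28.3% and 38.4% of their summed CPM and between 77.0% and 82.5% of that of the peroxidases. It had 1817 and 1878 CPM in DPPIV- FAPs and 1340 and 1672 CPM in DPPIV+ FAPs, so both DPPIV+ libraries were lower, that of mouse 1 by more. The log2 change was -0.30 ± 0.07 (edgeR adjusted p = 1.70e-04, DESeq2 0.0102), with ratios of -0.44 in mouse 1 and -0.17 in mouse 2, and without the pairing the adjusted p was 0.154. With Gpx3 included, the peroxidases summed to 2234 and 2276 CPM in DPPIV- FAPs and to 1740 and 2091 CPM in DPPIV+ FAPs. Gpx8, a peroxidase of the endoplasmic reticulum, had 117 and 120 CPM against 97.7 and 110 CPM and was at -0.20 ± 0.07 (edgeR adjusted p = 0.00993, DESeq2 0.319). Gpx4, which reduces lipid hydroperoxides within membranes and so protects cells from ferroptosis, had 83.5 and 76.1 CPM against 91.3 and 87.4 CPM and was at 0.16 ± 0.07 (edgeR adjusted p = 0.0389, DESeq2 0.519). The Gpx4 call is close to the threshold, since the adjusted p was 0.0542 with no filter on low counts, and 34.7% of its 50-base words occur in the pseudogene Gpx4-ps2. Gpx1, the cytosolic peroxidase, was at 0.11 ± 0.07 and Gpx7 at -0.06 ± 0.07, and neither passed. Gpx5, Gpx6 and Gpx2-ps1 had no reads, and Gpx2 had 1 read in all.

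**Figure D3:**
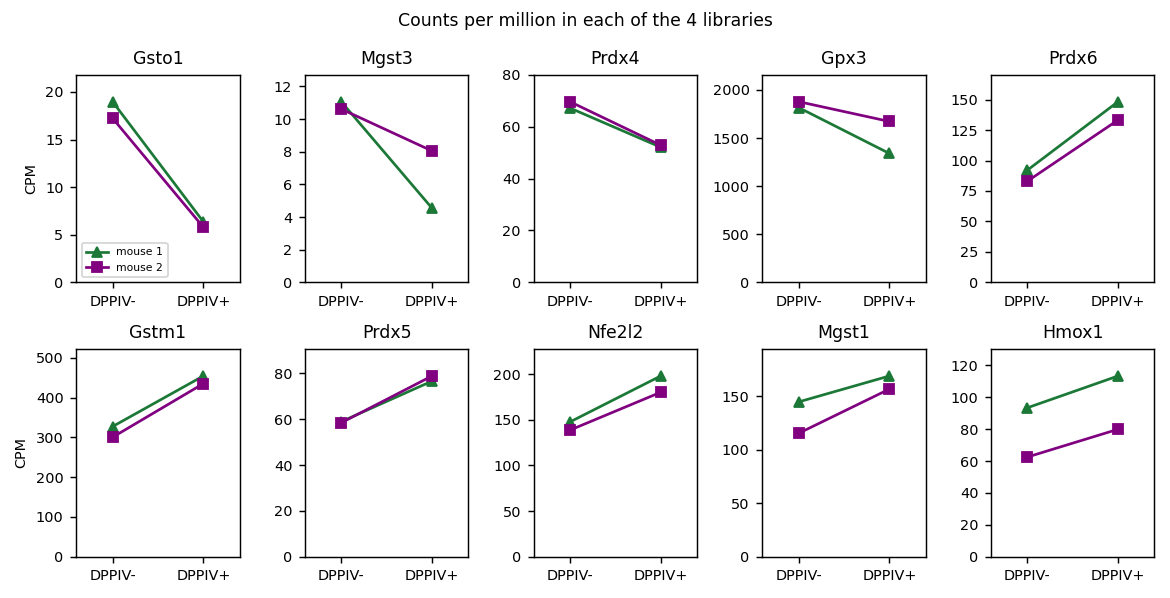
CPM of 10 of the genes in each of the 4 libraries, with a line joining the DPPIV- and DPPIV+ FAPs of mouse 1 (green triangles) and of mouse 2 (purple squares); every vertical axis is linear and starts at 0. Lines fall in both mice for Gsto1, Mgst3, Prdx4 and Gpx3 and rise in both for the other 6, and for Hmox1 the mice lie farther apart than the cell types.

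Peroxiredoxins reduce peroxides with thioredoxin or, in the case of Prdx6, with glutathione, and of the 7 tested genes of the class, Srxn1 included, 2 were higher and 1 was lower. Prdx6, at chr1:161240112-161251219 (GRCm38), had 92.0 and 83.0 CPM in DPPIV- FAPs and 148 and 133 CPM in DPPIV+ FAPs, with no overlap of the groups. Its log2 ratio was 0.69 in mouse 1 and 0.68 in mouse 2. The fitted log2 change of 0.69 ± 0.07 (edgeR adjusted p = 8.00e-24, DESeq2 adjusted p = 9.21e-09), or 1.61-fold, was the largest rise among the 40 genes. Prdx5, which is found in mitochondria, peroxisomes and cytosol, had 58.9 and 58.5 CPM against 76.7 and 78.9 CPM, a log2 change of 0.41 ± 0.07 (edgeR adjusted p = 1.49e-08, DESeq2 0.00973). Its exons share 409 bases with Trmt112 on the opposite strand, and whether the counting used strand is not given in the sources used here, so the reads of such pairs cannot be told apart. Exons of Gstm5, Gstz1, Gss, Gclm and Prdx2, none of which passed the test, overlap a gene on the opposite strand too. Prdx4, the peroxiredoxin of the endoplasmic reticulum and of secretion, went the other way with 67.1 and 69.6 CPM in DPPIV- FAPs and 52.0 and 52.8 CPM in DPPIV+ FAPs. The log2 change was -0.38 ± 0.07 (edgeR adjusted p = 2.10e-07, DESeq2 0.0247). Prdx1, the most abundant of the class per kilobase, had 196 and 198 CPM against 183 and 195 CPM and did not pass at -0.06 ± 0.07. Prdx2 (0.01 ± 0.07), the mitochondrial Prdx3 (0.17 ± 0.08, adjusted p = 0.110) and Srxn1, the sulfiredoxin that repairs overoxidized peroxiredoxins (0.06 ± 0.07), did not pass either. The peroxiredoxins and Srxn1 summed to 602 CPM in each DPPIV- library and to 654 and 663 CPM in the DPPIV+ libraries. This rise was not shared by the class: Prdx6 gained the most CPM, Prdx5 was higher, Prdx4 was lower, and the other 4 tested genes did not pass.

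None of the 4 superoxide dismutase and catalase genes passed the threshold, by edgeR or by DESeq2. Sod3, the extracellular enzyme, held between 65.4% and 67.7% of the CPM of the class, with 435 and 459 CPM in DPPIV- FAPs and 464 and 508 CPM in DPPIV+ FAPs, and was at 0.12 ± 0.07. Sod1, the cytosolic copper-zinc enzyme, had 112 and 103 CPM against 112 and 112 CPM and was at 0.06 ± 0.07. The mitochondrial Sod2 was at 0.15 ± 0.09 and Cat, the peroxisomal catalase, at 0.07 ± 0.07. In each of these genes both DPPIV+ libraries were above both DPPIV- libraries, but by little. A separation of the groups in either direction was seen in 56.3% of all genes tested. The 95% intervals of the 4 log2 changes reached from -0.06 at the lowest to 0.31 at the highest, so that a change of 1.5-fold lay outside each of them. This held for 20 of the 23 tested genes that did not pass, the others being Gsta4, Gstp2 and Nqo1. These intervals use a spread shared across genes, not the spread of each gene between the mice. Among the 20, the DESeq2 SE was larger, at 0.23 for Gsr, 0.29 for Gss and 0.30 for Gstk1. The log2 ratios of Gsr were 0.03 in mouse 1 and -0.52 in mouse 2. Missing the threshold does not show that the levels were equal.

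The genes of glutathione synthesis and reduction did not pass either, 0 of 4. Gclc, the catalytic subunit of the rate-limiting ligase, had 21.9 and 22.7 CPM in DPPIV- FAPs and 23.6 and 26.2 CPM in DPPIV+ FAPs, a log2 change of 0.16 ± 0.10 (adjusted p = 0.239). Gclm, its modifier subunit, was at 0.03 ± 0.10 and Gss at 0.05 ± 0.17. Gsr had 15.9 and 20.6 CPM against 16.2 and 14.4 CPM, a log2 change of -0.25 ± 0.12 (adjusted p = 0.0957) with ratios of 0.03 in mouse 1 and -0.52 in mouse 2. Of the cytosolic thioredoxin pair, Txn1 had 183 and 169 CPM against 197 and 205 CPM and was higher at 0.19 ± 0.07 (edgeR adjusted p = 0.0130, DESeq2 0.245), with a ratio of 0.11 in mouse 1 and 0.28 in mouse 2. Its reductase Txnrd1 had 52.4 and 65.5 CPM against 55.9 and 66.0 CPM and did not pass at 0.05 ± 0.07.

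Nfe2l2 itself was higher in DPPIV+ FAPs. It had 148 and 139 CPM in DPPIV- FAPs and 198 and 180 CPM in DPPIV+ FAPs, without overlap, and the log2 change was 0.40 ± 0.07 (edgeR adjusted p = 1.41e-08, DESeq2 adjusted p = 8.15e-04), or 1.32-fold. Hmox1, the inducible haem oxygenase, had 93.4 and 62.5 CPM in DPPIV- FAPs and 113 and 79.9 CPM in DPPIV+ FAPs. It rose in both mice, but mouse 2 was lower than mouse 1 in both cell types and the groups overlapped. The log2 change within mice was 0.32 ± 0.07 (edgeR adjusted p = 1.06e-05, DESeq2 0.0443), and the adjusted p was 0.409 without the pairing. Nqo1, a quinone reductase that is a standard NRF2 target, was at the lower end with 2.62 and 3.11 CPM against 2.72 and 2.08 CPM and did not pass at -0.26 ± 0.26, with an interval from -0.77 to 0.26.

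NRF2 binds with small MAF proteins to antioxidant response elements, whose core is often written TGACNNNGC. RefSeq windows on GRCm38, from 250 bases before to 50 bases after a transcript start, were matched to 45 of the 54 genes, and 33 of these were tested. The genes without a window were Gclc, Gpx2-ps1, Gsr, Gsta4, Gstt2, Hmox1, Prdx6, Prdx6b and Sod3. The letters TGACNNNGC were found on either strand in 8 of the 33 genes (24.2%), against 17.1% of all tested genes with a window and 14.0% of all genes with one. The related letters TGAGNNNGC were found in 7 of the 33 (21.2%), against 23.1% and 19.8%. Both overlap the AP-1 letters TGACTCA and TGAGTCA where the free bases allow it. Of the 8 genes, Nfe2l2 and Mgst1 were higher in DPPIV+ FAPs and Gclm, Gstm5, Prdx1, Sod1, Srxn1 and Txnrd1 did not pass. The matches of both risen genes and of 4 of the others are shown so that the letters can be compared. Each runs 5′ to 3′ on the strand that reads TGAC, with the match in capitals.
Nfe2l2: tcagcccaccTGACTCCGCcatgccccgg
Mgst1: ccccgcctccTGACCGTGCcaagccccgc
Gclm: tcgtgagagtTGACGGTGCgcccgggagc
Prdx1: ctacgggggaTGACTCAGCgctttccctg
Sod1: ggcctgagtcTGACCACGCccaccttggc
Txnrd1: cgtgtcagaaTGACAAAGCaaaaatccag
That of Nfe2l2 lies at chr2:75704885-75704913 on the minus strand, which is the strand of the gene, with its match beginning at -240 from the start. The others are on the minus strand too, opposite to their genes, with the most upstream base of the match at -56 for Mgst1 (chr6:138140461-138140489), -134 for Gclm (chr3:122245413-122245441), -133 for Prdx1 (chr4:116685456-116685484), -56 for Sod1 (chr16:90220696-90220724) and -92 for Txnrd1 (chr10:82859104-82859132). By the gene bounds of GENCODE M21, the Mgst1 and Txnrd1 sequences lie inside their own genes, and the other 4 lie upstream of theirs. The Prdx1 match alone of these 6 holds the AP-1 letters TGACTCA. A match is a description of the letters in this window, and no binding was measured.

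Levels of different genes were compared per kilobase of the principal transcript in GENCODE M21. Gpx3 had a mean of 1159 CPM per kilobase in DPPIV- FAPs and 945 in DPPIV+ FAPs, well above any other of the 40 genes. Gstm1 followed with 244 and 345, Txn1 with 167 and 191, and Sod1 with 168 and 175. The place of Sod1 depends on the transcript taken, since with all annotated exons merged its levels were 27.1 and 28.3 CPM per kilobase. Gstm2 (135 and 130), Gpx1 (124 and 133), Sod3 (120 and 130), Gpx8 (114 and 99.5) and Mgst1 (111 and 139) followed. In DPPIV- FAPs, the libraries of Sod1 and Txn1 overlapped, as did those of Gpx1 and Sod3. Those of Mgst1 overlapped with those of Gpx1, of Sod3 and of Gpx8. The order within each of these pairs is not set by these data. It also depends on the transcript: over merged exons in DPPIV- FAPs, Gstm2 (85.6) and Mgst1 (64.6) lay below Sod3 (120), Gpx8 (113) and Gpx1 (92.1). Nfe2l2 had 57.9 and 76.4 and Hmox1 had 49.7 and 61.6. With all annotated exons merged, Hmox1 lay above Nfe2l2, with 44.5 and 55.2 against 37.7 and 49.8. Gsr (6.83 and 5.72) and Gclc (6.51 and 7.27) were the highest of the synthesis and reduction genes, and Nqo1 was the lowest tested gene with 1.85 and 1.54.

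**Figure D4:**
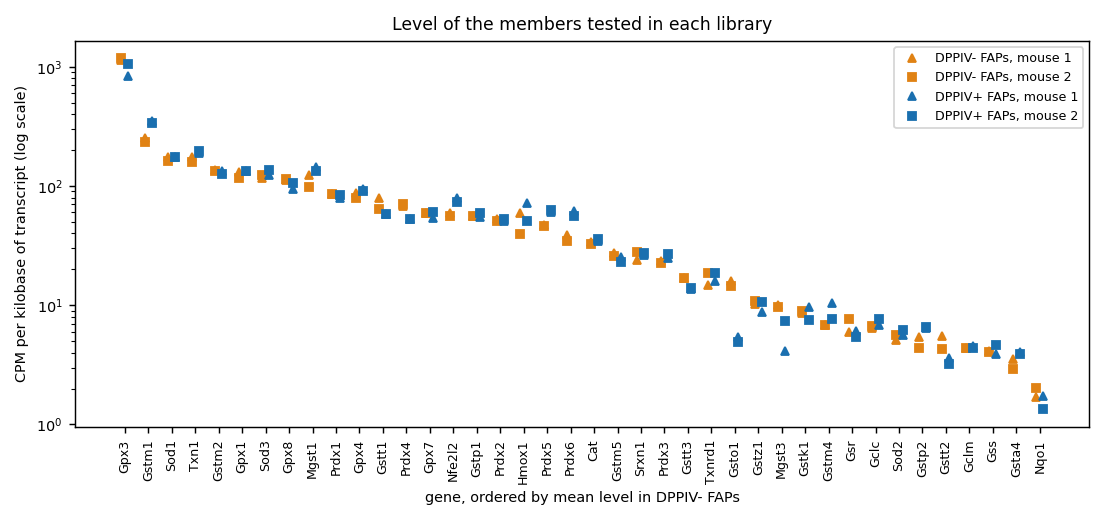
Level of the 40 tested genes in each of the 4 libraries as CPM per kilobase of the principal transcript, on a log axis, in the order of their mean in DPPIV- FAPs (orange; DPPIV+ FAPs in blue; triangles mouse 1, squares mouse 2). Levels run from about 1159 for Gpx3 to 1.85 for Nqo1, and the blue symbols stand clearly below the orange ones for Gsto1 and above them for Prdx6.

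A list of 89 other redox genes, written by function, gave the surroundings of these enzymes. Of these, 80 were tested, 21 were higher and 13 were lower in DPPIV+ FAPs (42.5%, against 33.0% of all genes tested), and DESeq2 called 12 and 7. The largest rise on the list was that of a source of oxidants. Duox1, an NADPH oxidase that releases hydrogen peroxide, had 410 and 330 reads in DPPIV- FAPs and 2199 and 2512 reads in DPPIV+ FAPs. That was 19.6 and 16.8 CPM against 122 and 138 CPM, a log2 change of 2.83 ± 0.08. Nox4, another NADPH oxidase, was higher at 0.65 ± 0.07 (72.0 and 80.0 against 133 and 106 CPM), with log2 ratios of 0.89 in mouse 1 and 0.41 in mouse 2. Xdh, the xanthine dehydrogenase, was higher at 0.64 ± 0.07 (343 and 309 against 558 and 457 CPM) and Maob, a monoamine oxidase, at 0.43 ± 0.07. Of the 9 tested genes of this group, 4 were higher and 0 lower, and 4 passed by DESeq2. Over all genes tested, 15.9% were higher and 17.2% lower by edgeR's test, and 16.6% passed by DESeq2.

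NADPH feeds both glutathione reductase and thioredoxin reductase. Of 8 genes of its supply, 4 were higher by edgeR's test: the pentose phosphate enzymes G6pdx (0.42 ± 0.07), Pgd (0.56 ± 0.07), Tkt (0.22 ± 0.07) and Taldo1 (0.17 ± 0.07), the first of which is the entry step of the pathway. Among all genes tested, 15.9% were higher by that test. G6pdx and Pgd also passed by DESeq2, and Tkt and Taldo1 did not. The log2 ratios in mouse 1 and mouse 2 were 0.12 and 0.31 for Tkt and 0.03 and 0.31 for Taldo1. The mitochondrial Idh2 was lower at -0.27 ± 0.08 (DESeq2 adjusted p = 0.275). Among 8 regulators of NRF2, Bach1, a repressor at the same elements (0.19 ± 0.07), and Mafk, a small MAF partner (0.18 ± 0.07), were higher by edgeR's test and not by DESeq2's, and Keap1 was at 0.09 ± 0.07 and did not pass. The log2 ratios in mouse 1 and mouse 2 were 0.30 and 0.07 for Bach1 and 0.33 and 0.03 for Mafk.

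Glutathione leaves cells and is taken apart outside them by gamma-glutamyl transferases, and 2 genes named for this family were lower. Ggt5 had 141 and 120 CPM in DPPIV- FAPs and 78.4 and 78.1 CPM in DPPIV+ FAPs, a log2 change of -0.73 ± 0.07, and Ggt7 had 10.1 and 9.34 CPM against 4.21 and 4.22 CPM, a change of -1.20 ± 0.19. Exons of Ggt7 share 197 bases with Acss2 on the opposite strand. Of the 10 tested genes of glutathione uptake and turnover, 3 were higher and 2 lower, and the cystine carrier Slc7a11 was under the filter with between 4 and 15 reads. Nxn, which codes for nucleoredoxin, a thioredoxin relative, fell from 33.0 and 36.0 CPM to 13.5 and 14.2 CPM, at -1.32 ± 0.10, as 1 of 2 lower genes among 10 thioredoxins and glutaredoxins. In the detoxification group, the aldehyde oxidase Aox3 was higher at 1.01 ± 0.16, and the soluble epoxide hydrolase Ephx2 was lower at -2.13 ± 0.30 on 98 and 70 against 21 and 13 reads. Ephx2 passed the filter only through the DPPIV- libraries, where it was high. It was not tested with the filter of 2 CPM in at least 3 libraries. The detoxification group had 5 higher and 2 lower of 13. For comparison with the counts of these groups, 15.9% of all genes tested were higher and 17.2% lower. Of 7 genes of iron and haem handling, 2 were higher, the metallothionein Mt2 and the biliverdin reductase Blvrb, and Hmox2 was lower. In the group of methionine sulfoxide repair and other antioxidants, 1 of 15 was higher, the copper chaperone Atox1 (0.72 ± 0.08), and 5 were lower, among them Sesn2 (-0.61 ± 0.21, DESeq2 adjusted p = 0.377), with log2 ratios of -0.90 in mouse 1 and -0.36 in mouse 2.

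**Figure D5:**
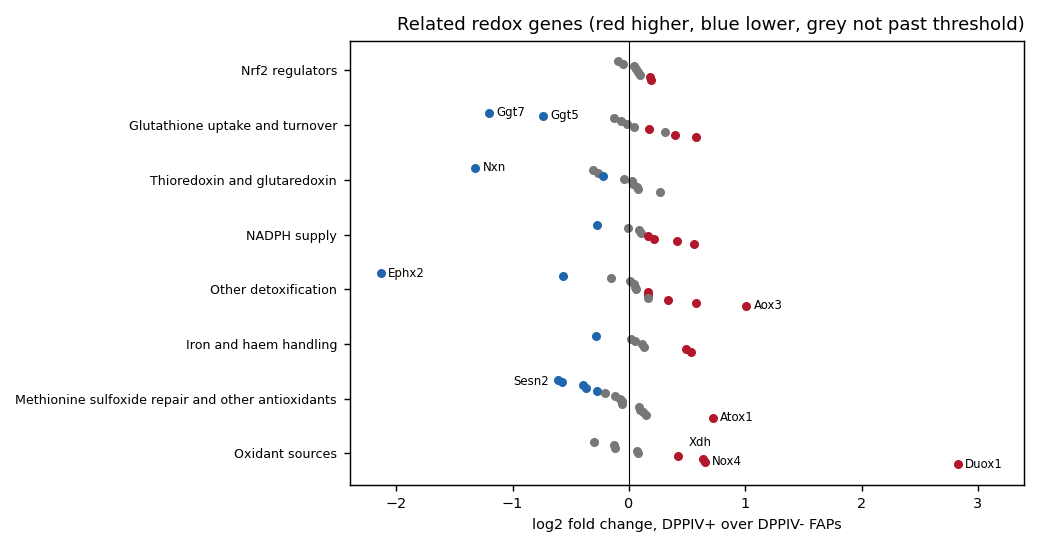
Fitted log2 fold change of DPPIV+ over DPPIV- FAPs for the 80 tested redox genes related to the enzymes, by functional group, with 1 circle per gene. The 10 genes that passed with at least a 1.5-fold change in the same direction in both mice are named. Duox1 stands farthest to the right at 2.83. Ephx2, which passed the filter only through the DPPIV- libraries, stands farthest to the left at -2.13.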

How the data were processed

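Bulk RNA sequencing of 4 libraries was used. Per the paper and the labels, bcl2fastq2 2.20 was used for demultiplexing, STAR for alignment to mm10 and RnaReadCounter for counting, and the authors deposited unnormalized raw counts for each symbol. The labels name the NEBNext Ultra II kit and the paper a TruSeq stranded kit, and the strand setting of the counting is not given in the sources used here.

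Counts of all 24421 symbols entered R 4.3.3. The 11588 genes that reached 2 CPM in 2 or more libraries were scaled by TMM and compared with edgeR 4.0.16 (quasi-likelihood F test, two-sided, Benjamini-Hochberg adjustment, threshold 0.05), with mouse as a block since the labels give both cell types of each mouse. The deviations of the 2 mice from the means of both cell types had a correlation of 0.44 across genes. An SE is the log2 change over the square root of F, and an interval is the 95% normal one. The prior degrees of freedom were infinite, so each gene took the trend's spread. With 2 mice, p-values carry little information on variation between animals. CPM are on TMM-scaled library sizes, and ratios per mouse used a prior count of 0.125. Intervals and detection limits cover no more than the spread or counting error named. Alternatives were DESeq2 1.42.0, no block, RLE scaling, other filters, robust moderation, a test against 1.5-fold, and each mouse left out. Code was tested on simulated data.

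Lengths, coordinates and overlaps came from GENCODE M21 on GRCm38, which is mm10, and promoter windows from RefSeq. Shared sequence was counted as 50-base words. Named with values in every library are members with at least a 1.5-fold change in the same direction in both mice and the most abundant member of each class, and others were added as values allowed. The members, lists and rule were chosen with earlier results of these data known, so no list is independent evidence.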

Additional observations from a re-analysis of the deposited data

How the results depend on the processing

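Of the 17 members called, 17 remained with RLE scaling, with a filter of 2 CPM in at least 3 libraries and with robust moderation, and 16 with no filter, which lost Gpx4. DESeq2 kept 10, the test without the pairing by mouse (no block) 6, and the test against a 1.5-fold change 1, Gsto1. Members higher numbered 9, against 4 with no block and 0 against a 1.5-fold change. Members lower numbered 8, against 4 by DESeq2, 2 with no block and 1 against a 1.5-fold change. With no filter, where members under 2 CPM were tested too, 9 were lower. Over all genes, 1837 were higher (923 by DESeq2, 1001 with no block, 436 against a 1.5-fold change) and 1989 lower (995, 1119 and 656). Of the related redox genes, 21 were higher (12, 12 and 2) and 13 lower (7, 6 and 4). Apart from the test against a 1.5-fold change, the calls of Gsto1, Gstm1, Nfe2l2, Prdx4, Prdx5 and Prdx6 held in the alternatives with a test. None of the 17 members called changed direction in these alternatives or without a mouse. The alternatives use the same 4 libraries, so their directions are not independent. Of all 3826 genes called, 3804 had the same direction in both mice. Gpx7, Gsr, Gss, Gstk1, Gstp1, Nqo1, Prdx2 and Srxn1, which were not called, differed in sign between the mice. Leaving out a mouse leaves 1 library per cell type and no test. The value of Mgst3 then lay between -1.28 and -0.40, of Gpx3 between -0.44 and -0.17, of Gstt1 between -0.43 and -0.14, of Gstm4 between 0.18 and 0.61, and of Txn1 between 0.11 and 0.28. The cause of these differences was not tested.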

Other observations

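The 2 mice differed in some of these genes in both cell types. Hmox1 was lower in mouse 2 than in mouse 1 by a log2 difference of -0.58 in DPPIV- FAPs and -0.50 in DPPIV+ FAPs. The heat shock gene Hspa1a had 20526 reads in mouse 1 and 8526 in mouse 2 in DPPIV- FAPs, and 13564 and 6142 in DPPIV+ FAPs. Dnajb1, a heat shock cochaperone, had 4881 and 2814 reads in DPPIV- FAPs, and 3000 and 2027 in DPPIV+ FAPs. Txnrd1 differed the other way, with mouse 2 higher by 0.32 and 0.24. The differences between the mice were not tested.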
